A study of Mus musculus with 2 samples.

Results

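The miR-148/miR-152 family consists of 3 miRNA hairpins, miR-148a, miR-148b and miR-152, each of which can release a mature miRNA from its 5p arm and from its 3p arm. Both arms of the 3 hairpins were taken by name from a count table of mature mouse miRNAs, which gave 6 of 1915 names. The table was made by small RNA sequencing of bone marrow-derived macrophages (BMDMs), that is, bone marrow precursors grown into macrophages in a dish. The BMDMs came from wild type C57/BL6 mice at 8 weeks of age and were left unstimulated. The 2 libraries, labelled as biological replicates 1 and 2, belong to this single condition, so there was no treatment or genotype to compare and the questions were which members the macrophages contained, which arm of each hairpin was read and how far the replicates differed. The study describes more small RNA libraries of these cells than these 2, and no other was analysed here.

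A miRNA guides the silencing complex to messenger RNAs mainly by pairing of its seed, and miRNAs with the same seed are grouped as a family because they can share targets. Members of the miR-148/miR-152 family are known to repress the kinase CaMKII and thereby to restrain MHC class II presentation and cytokine release in dendritic cells, and to target the DNA methyltransferase DNMT1. miR-148a is also known in liver for acting on the LDL receptor and on ABCA1, the transporter that moves cholesterol out of cells, a function that is central to macrophages in the artery wall.

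The mature sequences show what the members share. They are given 5′ to 3′ from RefSeq (GRCm38.p6), in lower case with the seed, bases 2 to 8, in capitals.
mmu-miR-148a-3p: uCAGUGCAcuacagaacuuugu
mmu-miR-148b-3p: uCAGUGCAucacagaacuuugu
mmu-miR-152-3p: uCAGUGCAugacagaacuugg
mmu-miR-148a-5p: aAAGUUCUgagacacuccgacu
mmu-miR-148b-5p: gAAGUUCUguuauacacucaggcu
mmu-miR-152-5p: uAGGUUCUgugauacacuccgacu

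The 3 3p arms carried 1 common seed, CAGUGCA, and among the 1623 names of the table with a RefSeq mature sequence no other name had it. Counting positions from 1 at the 5′ end of the miRNA named first, miR-148a-3p differed from miR-148b-3p at 2 of 22 bases (C9U and U10C). It differed from miR-152-3p at 3 of 21 bases (C9U, U10G and U20G), and miR-148b-3p differed from miR-152-3p at 2 of 21 (C10G and U20G). The differences between the 3p arms thus lay outside the seed. The 5p arms split into 2 seeds, AAGUUCU in miR-148a-5p and miR-148b-5p and AGGUUCU in miR-152-5p. The 3p arms and miR-152-5p began with U, as did 38.5% of the 366 names that had a sequence and at least 10 counts in each library. The arms of miR-148b-5p and miR-152-5p were 24 bases long, miR-152-3p was 21 bases long and the other 3 were 22, so their counts were compared without scaling to length.

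The hairpins are shown with both mature arms in capitals, the 5p arm first, because the use of these arms differed between the 3 genes.
Mir148a: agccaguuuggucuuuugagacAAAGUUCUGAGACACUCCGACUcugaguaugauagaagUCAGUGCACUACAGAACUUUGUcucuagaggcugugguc
Mir148b: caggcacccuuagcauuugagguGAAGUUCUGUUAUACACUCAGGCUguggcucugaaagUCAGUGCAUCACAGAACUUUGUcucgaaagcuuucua
Mir152: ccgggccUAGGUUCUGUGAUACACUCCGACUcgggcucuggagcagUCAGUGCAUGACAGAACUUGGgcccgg

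Mir148a (ENSMUSG00000065505.1) lies at chr6:51269812-51269910 on the minus strand of GRCm38, and the GENCODE annotation places it in no host gene. The nearest protein-coding gene, Nfe2l3, is 162760 bases away. Mir148b (ENSMUSG00000065560.1) lies at chr15:103285125-103285221 on the plus strand, in intron 1 of Copz1 and on the same strand as that gene. Mir152 (ENSMUSG00000065515.1) lies at chr11:96850393-96850465 on the plus strand, in intron 1 of Copz2 and again on the strand of its host. Copz1 and Copz2 encode paralogous zeta subunits of the COPI coat of Golgi vesicles. Neither hairpin overlapped an exon in the 4 transcripts of Copz1 and the 3 of Copz2 that span it.

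All 6 members were detected in both libraries. Replicate 1 held 7322969 counts and replicate 2 held 8094314, and levels are given as RpM, the reads of a miRNA per 1000000 miRNA counts of its library. A count of 0, taken as up to 3 counts of the total, would allow 0.410 RpM in the first library and 0.371 RpM in the other. Intervals are 95% Wilson intervals unless named otherwise. Intervals and floors cover counting error only, since reads amplified by PCR and lacking molecular identifiers do not each stand for 1 molecule.

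The family was dominated by miR-148a-3p. It was counted 69595 times in replicate 1 and 71066 times in replicate 2, which corresponds to 9504 RpM (9434 to 9574) and 8779.7 RpM (8716 to 8844). Its mean of 9142 ± 512 RpM (SD, n = 2) placed it at rank 17 of 1915 names. miR-148b-3p, which has the same seed, had 18023 and 16869 counts, or 2461 and 2084 RpM, with a mean of 2273 ± 267 RpM and rank 45. The values of these 2 members did not overlap, and miR-148a-3p exceeded miR-148b-3p by 3.86-fold in replicate 1 (exact interval 3.80 to 3.93) and by 4.21-fold in replicate 2 (4.14 to 4.28).

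The remaining 4 members lay between ranks 115 and 160. miR-148b-5p, the opposite arm of miR-148b-3p, reached 251 RpM in replicate 1 from 1838 counts and 191 RpM in replicate 2 from 1545 counts. miR-152-5p gave 116 RpM in both replicates, from 846 and 939 counts. miR-148a-5p, the minor arm of the most abundant hairpin, was read 828 and 502 times and reached 113 and 62.0 RpM. miR-152-3p, the third carrier of the common 3p seed, was the least abundant by mean, with 506 and 723 counts, 69.1 and 89.3 RpM and a mean of 79.2 ± 14.3 RpM.

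The order of miR-148a-3p, miR-148b-3p and miR-148b-5p, the most abundant members, was the same in both libraries and their values did not overlap. Below them the full order was not resolved. miR-148a-5p and miR-152-5p had overlapping intervals in replicate 1 (106 to 121 RpM and 108 to 124 RpM), although miR-152-5p was 1.87-fold higher in replicate 2. miR-148a-5p exceeded miR-152-3p by 1.64-fold in replicate 1 (exact interval 1.46 to 1.83), whereas in replicate 2 it was lower, at 0.694 of miR-152-3p (0.618 to 0.779).

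**Figure D1:**
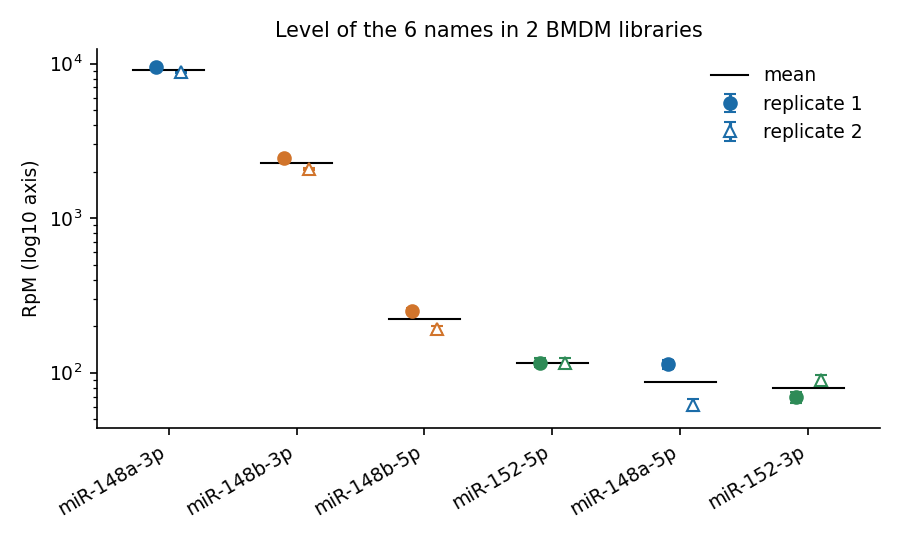
Level of the 6 members in RpM on a log10 axis, with filled circles for replicate 1, open triangles for replicate 2, 95% Wilson intervals as bars and the mean of both libraries as a line. miR-148a-3p lies near 9142 RpM, and the replicates of miR-148a-5p and miR-152-3p stand in opposite order.

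Together the 6 names held 91636 counts in replicate 1 and 91644 in replicate 2, which is 12514 and 11322 RpM. The mean of 11918 ± 843 RpM was 1.19% ± 0.0843 of all miRNA counts (SD, n = 2). miR-148a-3p made up 75.9% of the family in replicate 1 (75.7 to 76.2) and 77.5% in replicate 2 (77.3 to 77.8), with a mean of 76.7% ± 1.13. miR-148b-3p supplied 19.0% ± 0.892 and each of the other 4 members at most 2.01% in either library. Nearly all family reads therefore came from the 3p arms of the miR-148a and miR-148b hairpins.

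The composition differed between the arms. Among the 3p arms, miR-148a-3p accounted for 79.6% ± 0.837, miR-148b-3p for 19.7% ± 1.01 and miR-152-3p for 0.695% ± 0.171. Among the 5p arms, which summed to 424 ± 78.3 RpM against 11494 ± 764 RpM for the 3p arms, miR-148b-5p was the largest with 52.0% ± 0.420. miR-152-5p followed with 24.1% in replicate 1 and 31.4% in replicate 2, and miR-148a-5p with 23.6% and 16.8%. The hairpin with 77.5% ± 0.879 of the family reads, miR-148a, thus gave the smallest mean share of the 5p reads, while miR-152, with 1.64% ± 0.239 of the family, gave 27.8% ± 5.20 of them.

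miR-148a-3p and miR-148b-3p share an unbroken stretch of 12 bases after the positions at which they differ. No name outside the family had the same pair of counts as a member. The number of mismatches allowed in mapping and the handling of reads that match several hairpins were not given in the sources used here, and a transfer of reads between the 3p arms was not tested. The shares of the 3p arms are therefore those of the deposited assignment of reads to names.

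Arm use was measured as the 3p counts in percent of the counts of both arms of a hairpin. The miR-148a hairpin was read almost entirely from its 3p arm, with 98.8% in replicate 1 (98.7 to 98.9) and 99.3% in replicate 2 (99.2 to 99.4). The 3p arm of miR-148b accounted for 90.7% (90.3 to 91.1) and 91.6% (91.2 to 92.0). In miR-152, by contrast, the 3p arm was the minor arm, with 37.4% of 1352 counts in replicate 1 (34.9 to 40.0) and 43.5% of 1662 counts in replicate 2 (41.1 to 45.9), and both intervals lay below 50%. The arm that carries the family seed was thus the more abundant one in miR-148a and miR-148b, and the less abundant one in miR-152 in both libraries. Expressed as a ratio, the 3p arm exceeded the 5p arm by 113 ± 40.7-fold in miR-148a and by 10.4 ± 0.787-fold in miR-148b, whereas in miR-152 the 5p arm exceeded the 3p arm by 1.49 ± 0.264-fold.

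**Figure D2:**
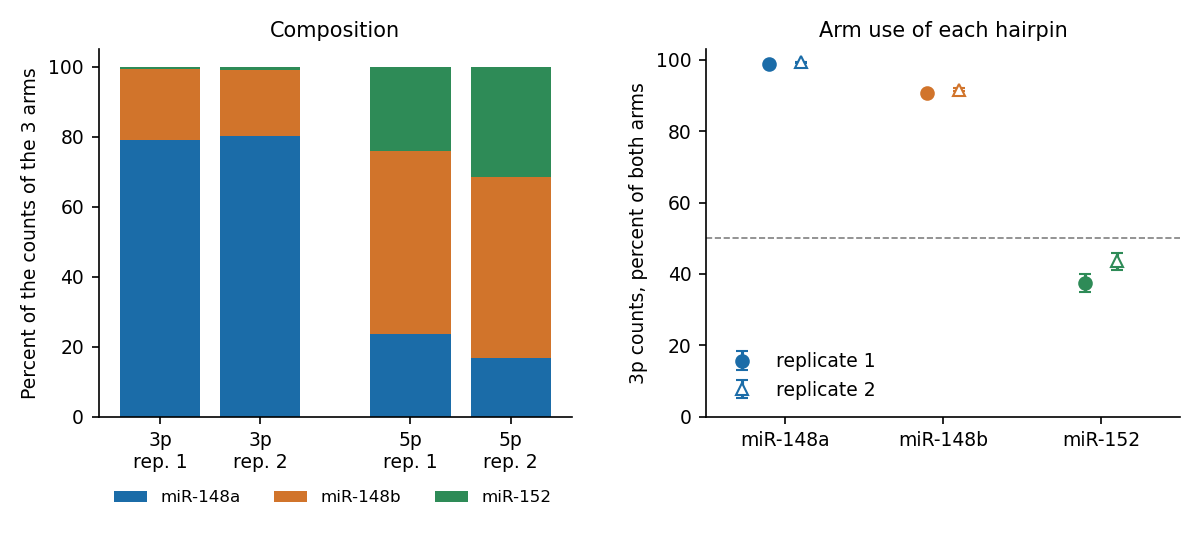
Left, the percent of 3p counts and of 5p counts contributed by each hairpin in each library. Right, 3p counts in percent of both arms, with 95% Wilson intervals, filled circles for replicate 1 and open triangles for replicate 2, where miR-152 lies below the dashed line at 50% in both libraries.

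To place these values, arm use was taken over the 155 hairpins that had both arms listed and at least 100 counts in each library. Of these, 69 (44.5%) were read mostly from the 3p arm and 86 from the 5p arm, and the median share of the major arm was 97.3%. The major arm of miR-148a, at 99.1%, exceeded that of 65.8% of the hairpins. That of miR-148b, at 91.2%, exceeded 31.6% of them. miR-152 was among the hairpins with the most even use, since its major arm held 59.5% of the reads and only 7 of the 155 hairpins (4.52%) had a smaller share, while 17 (11.0%) had a major arm under 70%. Among the 91 hairpins with at least 1000 counts in each library, 2.20% had a smaller share than miR-152. The 155 leave out hairpins whose arms carry differently numbered names, such as miR-16-5p and miR-16-1-3p. They also hold repeat-family names with equal counts, such as miR-669a-5p and miR-669p-5p.

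**Figure D3:**
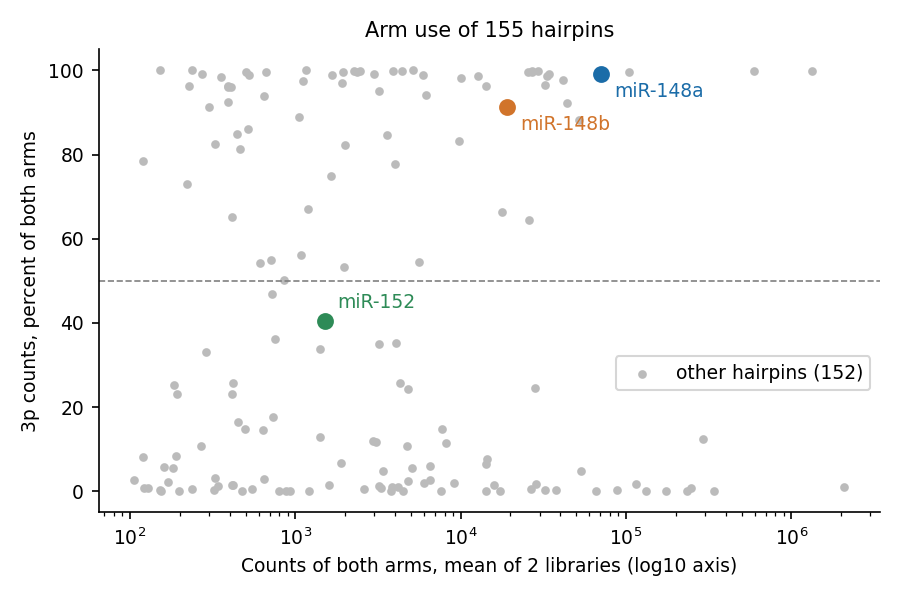
3p counts in percent of both arms, mean of both libraries, against the mean count of the hairpin on a log10 axis, for the 155 hairpins with at least 100 counts in each library. Most hairpins lie near the top or the bottom, miR-148a and miR-148b are at 99.1% and 91.2%, and miR-152 is at 40.5%, below the dashed line at 50%.

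The 3p share was higher in replicate 2 for each of the 3 hairpins, by 0.474 percentage points in miR-148a, 0.864 in miR-148b and 6.08 in miR-152. A two-sided Fisher's exact test of 3p against 5p counts by library was run over all 254 hairpins with at least 20 counts, with Benjamini-Hochberg adjustment and an adjusted p under 0.05 taken as a difference. By this exact test the difference passed for miR-148a (adjusted p = 2.82e-19), miR-148b (adjusted p = 0.0159) and miR-152 (adjusted p = 0.00492). For comparison, 20.9% of all tested hairpins differed between the libraries in either direction, and 8.66% differed with a higher 3p share in replicate 2. The tested hairpins include many with few counts, in which a difference is harder to detect. The share among hairpins counted as often as these 3 was not computed. This test, like the one on levels, compares these libraries and covers counting error only, so with 2 libraries of 1 condition it says how far the replicates lay apart. In size, a difference at least as large was found in 58.7% of the 155 hairpins for miR-148a, in 48.4% for miR-148b and in 9.03% for miR-152, where the median difference was 0.747 points. Because arm use is a ratio within a library, it does not depend on how the libraries are scaled.

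The replicate ratio was calculated as the share of a member in replicate 2 over that in replicate 1, on the log2 scale. Over the 448 names with at least 10 counts in each library the median log2 ratio was −0.17 with library totals. It was −0.044 with the TMM scaling of edgeR and −0.029 with the size factors of DESeq2, which add 0.13 and 0.14 to every log2 ratio. A two-sided Fisher's exact test of each count against the rest of its library was run over the 588 names with at least 10 counts summed, with the same adjustment and threshold. The 6 members were all among them, and 5 passed with library totals, 4 with a lower and 1 with a higher share in replicate 2, of which 1 of the lower, miR-148a-3p, turned positive with TMM and DESeq2. Of all tested names 44.2% passed, 30.4% with a lower and 13.8% with a higher share in replicate 2. These include names with few counts, which passed less often. Tested alone, the 326 names with at least 100 counts summed gave 224 that passed, 150 lower and 74 higher. The same 5 members passed there. With library totals the 260 names that passed split into 81 higher and 179 lower, with TMM 259 passed, 122 higher and 137 lower, and with DESeq2 251 passed, 124 higher and 127 lower.

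miR-148a-5p had the widest replicate ratio of the family, with a log2 ratio of −0.87 (exact interval −1.03 to −0.70, adjusted p = 3.22e-26), and remained lower in replicate 2 with TMM (−0.74) and DESeq2 (−0.72). Over both libraries 170 names reached 1000 counts, and 4.71% of them had a ratio at least as far from 0. miR-148b-5p was lower in replicate 2 by the exact test with a log2 ratio of −0.40 (adjusted p = 1.08e-14), and miR-148b-3p with −0.24 (adjusted p = 2.32e-53). Relative to the median name these were −0.69 for miR-148a-5p, −0.22 for miR-148b-5p and −0.066 for miR-148b-3p. All 3 kept their direction with both scalings. With library totals, 30% of the 170 names had a ratio at least as far from 0 as miR-148b-5p. For miR-148b-3p it was 51.8%.

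miR-152-3p moved the other way. Its log2 ratio was 0.37 (exact interval 0.20 to 0.54, adjusted p = 3.20e-05), or 0.54 relative to the median name. It was also higher in replicate 2 with TMM (0.50) and DESeq2 (0.51). With library totals, 32.4% of the 170 names with at least 1000 counts had a ratio at least as far from 0. For miR-152-5p the log2 ratio was 0.0060 (exact interval −0.13 to 0.14, adjusted p = 1), and no difference was detectable at this depth. Relative to the median name it was 0.18, with TMM it was 0.14 (exact test, adjusted p = 0.101) and with DESeq2 0.15 (exact test, adjusted p = 0.0662), so it passed with neither. The sign for miR-152-5p was not stable, since the log2 ratio was −0.039 when miR-21a-5p, the most abundant name, was left out of the totals.

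The ratio of miR-148a-3p was the smallest in size of the 5 that passed, and its direction depended on the scaling. With library totals it was lower in replicate 2 by the exact test (log2 ratio −0.11, adjusted p = 2.98e-49), with TMM it was 0.015 and did not pass (exact test, adjusted p = 0.0983), and with DESeq2 it was 0.030 and higher (exact test, adjusted p = 0.000292). It lay 0.059 above the median name, and 73.5% of the 170 names with at least 1000 counts had a ratio at least as far from 0. The sum of the 6 members had log2 ratios of −0.14 by library totals, −0.015 by TMM and 0.00013 by DESeq2, whereas the sum of the 5p arms was lower in replicate 2 with each of them (−0.38, −0.25 and −0.23).

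**Figure D4:**
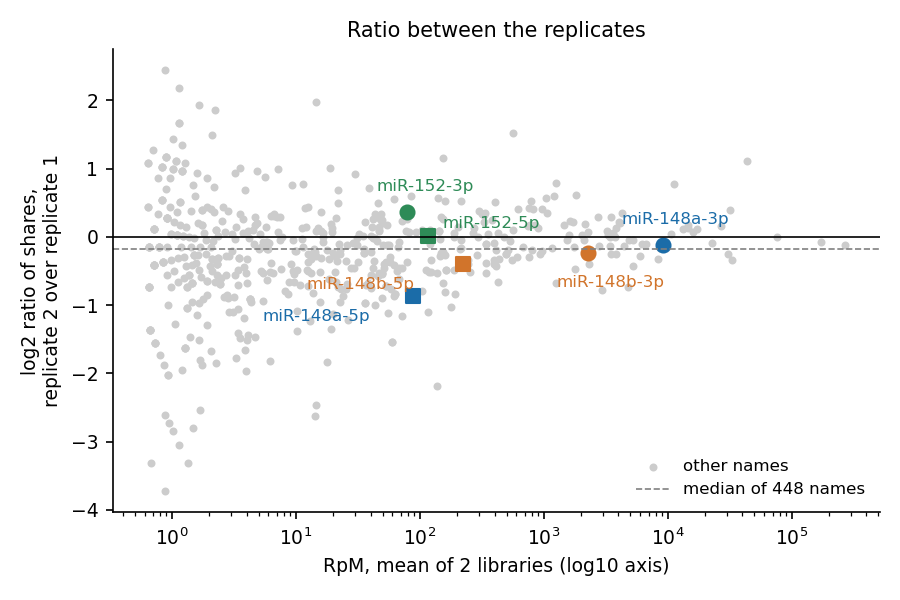
Log2 ratio of shares, replicate 2 over replicate 1, with library totals, against mean RpM on a log10 axis for the names with at least 10 counts summed and counts in both libraries, with circles for 3p and squares for 5p members and a dashed line at the median of 448 names. miR-148a-3p, at −0.11 here and at 0.015 with TMM and 0.030 with DESeq2, lies close to the median, while miR-148a-5p at −0.87 lies below it and miR-152-3p at 0.37 above.

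The 3p seed was then ranked among all seeds by summing the RpM of the names that carry the same bases 2 to 8. The 1623 names with a sequence held 94.2% of the counts in replicate 1 and 93.4% in replicate 2 and fell into 1352 seeds. The family seed reached 12034 and 10953 RpM in the respective replicates and ranked 14 by its mean of 11494 ± 764 RpM. It followed the seeds of miR-181 (12375 ± 180.3 RpM) and of miR-99b, miR-99a and miR-100 (12063 ± 4361 RpM) and preceded that of miR-221 and miR-222 (10246 ± 120 RpM). The libraries of the miR-99b seed, at 8979 and 15146 RpM, lay on either side of the family, so these neighbours did not differ beyond their spread, whereas the miR-181 seed was above and the miR-221 seed below the family in both libraries. Among names without a sequence, miR-30d-5p and miR-378a-3p had higher levels than the family seed and could not be assigned to a seed here. The 5p seed of miR-148a and miR-148b summed to 308 ± 78.6 RpM at rank 63, and that of miR-152-5p ranked 99. Of the names without a sequence, 13 had higher levels than the first of these 5p seeds and 18 than the second. These ranks therefore hold only among the names with a sequence.

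**Figure D5:**
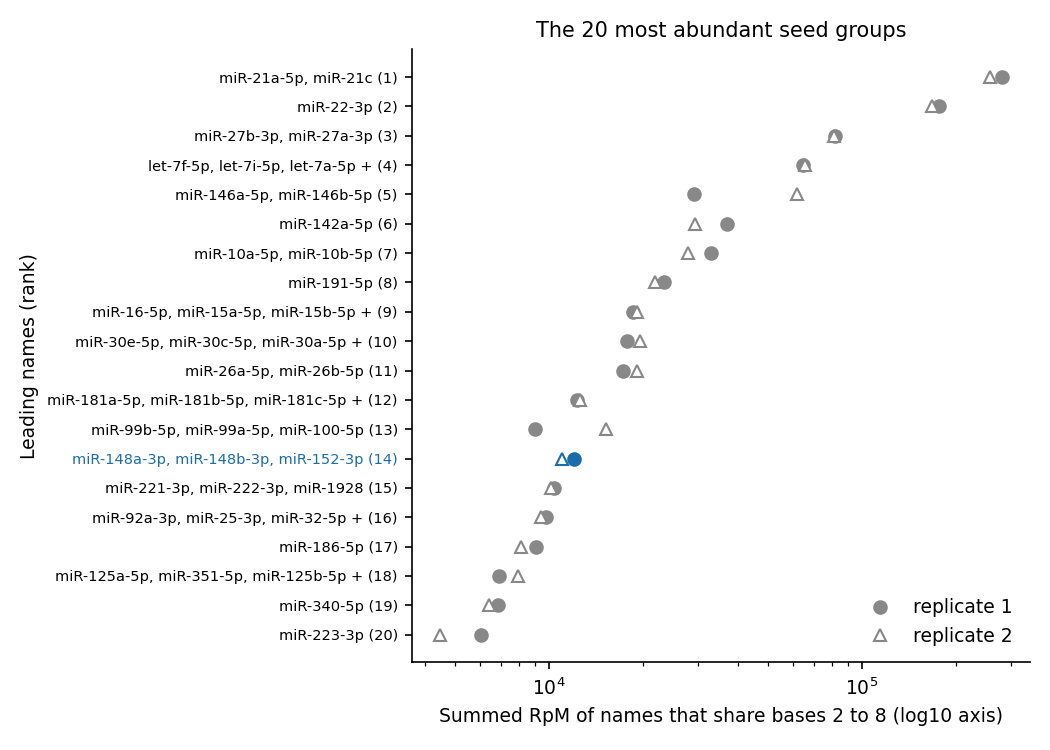
Summed RpM on a log10 axis of the 20 most abundant seeds, each named by up to 3 of its leading miRNAs with its rank, with circles for replicate 1 and triangles for replicate 2. The family, in blue, ranks 14 with 12034 and 10953 RpM, between the replicates of the miR-99b seed at rank 13.

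The letters of the family seed also occur, shifted by 1 base to bases 1 to 7, in 7 of the 1623 names with a sequence, of which 3 were detected. These were members of the miR-130 and miR-301 group, miR-301a-3p with 3478 ± 506 RpM, miR-130b-3p with 1051 ± 178 RpM and miR-130a-3p with 12.5 ± 2.99 RpM. miR-301b-3p, at 302 ± 54.9 RpM, was not among the names with a sequence. Anywhere in the mature sequence the letters were found in 17 of the 1623 names (1.05%). This is a match of letters, and targeting was not measured.

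By levels in both libraries, the names most like each 3p member were found as the 3 with the smallest Euclidean distance of log2 shares over the 2 libraries, among names with at least 1000 counts summed. For miR-148a-3p these were miR-186-5p (distance 0.13), let-7a-5p (0.25) and miR-181a-5p (0.31). For miR-148b-3p they were let-7c-5p (0.12), miR-24-2-5p (0.20) and miR-351-5p (0.22), and for miR-152-3p miR-1843b-5p (0.080), miR-200b-3p (0.20) and miR-362-3p (0.20). The distance describes levels in 2 libraries only.

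Since miR-148a is known to act on ABCA1, its level was set beside 11 other miRNAs described as acting on ABCA1 and cholesterol efflux. Of these, 9 were detected in both libraries, and 2 were more abundant than miR-148a-3p. These were miR-27b-3p at 76465 ± 124 RpM and miR-26a-5p at 14492 ± 1213 RpM. miR-148a-3p in turn exceeded miR-27a-3p (5255 ± 118 RpM) by 1.74-fold, miR-130b-3p by 8.70-fold and miR-33-5p (25.2 ± 9.21 RpM), which is encoded within the Srebf2 gene, by 363-fold. miR-758-3p had 0 counts in both libraries. By the exact test on the replicate ratio, 4 of the 9 tested were higher and 3 lower in replicate 2 with library totals. Of all 588 names 13.8% were higher and 30.4% lower, and of the 326 with at least 100 counts summed 74 and 150. With TMM and with DESeq2, 6 of the 9 were higher and 1 lower, beside the 122 and 137 of 588 names with TMM given above. The median log2 ratio of the 9 was −0.0033 with library totals and 0.13 with TMM.

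The label of the cells was checked against marker miRNAs. The 5 myeloid markers were all detected and together made 329283 and 294810 RpM, led by miR-21a-5p at 268422 ± 16017 RpM, with miR-223-3p at 5269 ± 1109 RpM. Without miR-21a-5p, which is known from other cell types too, the remaining 4 made 49536 and 37714 RpM. Most of that was miR-142a-5p, at 33141 ± 5500 RpM, beside miR-142a-3p at 4818 RpM and miR-511-3p at 397 RpM. Whether any of the 5 is specific to myeloid cells was not tested. By the exact test on library totals, replicate 2 was lower for all 5. The same held for 30.4% of all names and for 150 of the 326 with at least 100 counts summed. With TMM and with DESeq2, 4 of the 5 were lower and 1 higher. There the log2 ratio of miR-21a-5p turned from −0.12 to 0.0077 and 0.023. The markers of other cells were low. The 5 stromal markers, led by miR-143-3p at 152 ± 49.4 RpM, summed to 239 and 161 RpM, and the 5 epithelial markers, led by miR-200b-3p at 85.0 ± 24.4 RpM, to 171 and 185 RpM. By the exact test 2 stromal markers were lower in replicate 2 with each scaling, with library totals miR-143-3p (log2 ratio −0.67) and miR-214-3p (−1.49). Of the epithelial markers, miR-200b-3p was higher (log2 ratio 0.59), whereas miR-141-3p (−0.46) and miR-200c-3p (−0.53) were lower, with 1 of these 2 passing with TMM and with DESeq2. The lymphoid marker miR-150-5p had 27.6 and 10.9 RpM and was lower in replicate 2 with each scaling (log2 ratio −1.34 with library totals), the endothelial marker miR-126a-3p 14.1 and 10.9 RpM, the 2 erythroid markers, led by miR-451a, summed to 1.23 and 0.988 RpM, and the 2 neuronal markers to 1.64 and 1.36 RpM, with miR-124-3p at 0. The hepatocyte marker miR-122-5p was at 0 in both libraries, and of the 3 striated muscle markers only miR-133a-3p was read, at 0.741 RpM in replicate 2. Markers and members moved between the same 2 libraries, and the part of other cells in the levels of miR-152 or miR-148a-5p, which lay in the range of single stromal and epithelial markers, was not tested.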

How the data were processed

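Total RNA of the BMDMs was depleted of rRNA and made into Illumina small RNA libraries. After trimming, the authors aligned the reads to mouse miRBase stem-loops with Bowtie 0.12.7 and deposited raw counts per mature miRNA name, with the replicates kept apart. The miRBase release was not given in the sources used here. Ligation and PCR favour some sequences, so RpM values need not equal the proportions of molecules in the cells. Shares, intervals and Fisher's exact tests were computed from the deposited counts with Python 3.11.15, scipy 1.17.1 and numpy 2.4.6. Scaling factors came from edgeR 4.0.16 (TMM) and DESeq2 1.42.0 in R 4.3.3. The tests were checked on simulated data drawn with counting error only, so the check does not cover other differences between replicates. Loci came from GENCODE M21, and the hairpin and mature sequences from RefSeq, which matched 1623 names and lacked 292. Alternatives were other scalings and totals, pooled reads, other count minimums, 3p arms only and each library alone. The members and lists were chosen with earlier results of these data known. The names given were the members, their nearest names, names sharing a seed, and the lists. The names neighbouring the family in seed rank, the detected names with shifted seed letters and the 2 names without a sequence above the family were chosen after their values were seen.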

Additional observations from a re-analysis of the deposited data

How the results depend on the processing

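With 2 libraries, a level, share or arm use from 1 library or from pooled reads lies within 1 SD of the mean by construction, so these were not counted. Of the 82 other values recomputed under alternatives, 9 moved by more than 1 SD or by 1 rank and 3 log2 ratios changed sign. Leaving miR-21a-5p out of the totals raised the 6 members together to 16307 RpM, and moved 5 of the 6 single levels by more than 1 SD. Among hairpins with at least 1000 counts in each library, the percent with a smaller major arm than miR-152 fell from 4.52% to 2.20%. With 3p arms only, miR-148a-3p was 79.6% of the family. With either replicate left out, miR-148a-3p ranked 16 to 17 and the 3p seed 13 to 14. The log2 ratio of miR-148a-3p turned to 0.015 with TMM and 0.030 with DESeq2, whose size factors were 1 in both libraries, so that raw counts were compared. That of miR-152-5p, which did not pass, turned to −0.039 without miR-21a-5p in the totals. The causes were not tested. No paired analysis was possible because both libraries belong to a single condition. With TMM the difference of miR-148a-3p did not pass the exact test after adjustment (adjusted p = 0.0983). With 2 libraries, the SD itself is poorly known.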
